A study of Xenopus tropicalis with 30 samples.

Results

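A pool of total RNA from 3 adult female *Xenopus tropicalis* (the western clawed frog, whole body) was read for its transcription start sites in 2 ways: once by CAGE and in 2 repeat libraries, R1 and R2, by WTSS-seq. These 3 libraries, of 30 in the series, are compared here. All 3 carry the same RNA, taken up in Trizol, so no difference of animal, sex or age separates them. The deposited table of start sites lists 69857 site clusters, of which 65274 had a count in at least 1 of the 3 libraries. The columns of single animals were left out.

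A messenger RNA begins with a cap, a modified guanosine added as RNA polymerase II starts to transcribe, so a capped 5′ end marks a start of transcription. CAGE selects RNA by its cap and reads the first bases behind it, and here it was made with a commercial CAGE kit. WTSS-seq was made, per the labels, by removal of ribosomal RNA, synthesis of a first cDNA strand, size selection and PCR; whether it also selects for the cap is not given in the sources used here. An RNA can also carry a 5′ end that no promoter made, for example after cleavage or decay, and mitochondrial transcripts lack the nuclear cap.

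The CAGE library held 2641136 counts, against 1935959 in WTSS-seq R1 and 9227896 in WTSS-seq R2. Levels are counts per 1000000 counts of the library (CPM). A count of 0 allows a level of up to 1.14 CPM in CAGE, 1.55 CPM in R1 and 0.325 CPM in R2 (3 counts, counting error only). With 1 CAGE library the assays could be described but not tested, and the spread between R1 and R2 is technical, since both came from 1 pool. Every site in the table had at least 25 counts over its 15 libraries, of which 14 were WTSS-seq, so a site seen by CAGE alone entered at 9.47 CPM or more while a site seen by WTSS-seq could enter on other libraries. The tables name no genes and no genome build, so sites are given by chromosome, strand and position, counted from 1.

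The first question was how far the assays placed the same RNA at the same sites. They shared little of their ranking. Across the 65274 sites, CAGE correlated with R1 at Pearson's r = 0.418 and with R2 at r = 0.411 on log2(CPM + 1), while R1 and R2 correlated at r = 0.752. Spearman's rho was 0.293 and 0.310 for CAGE with R1 and R2, and 0.593 between the repeats. The set used for the 4-fold calls was the 11822 sites averaging at least 10 CPM over the assays. There, CAGE correlated with R1 at r = -0.124 and with R2 at r = -0.131, against 0.793 between the repeats. This filter keeps sites high in either assay, which can by itself lower the values for CAGE more than that between the repeats. The part of this was not tested. All these correlations describe sites that share libraries and depth, and carry no test. Among the 100 highest sites of each library, CAGE shared 11 with R1 and 9 with R2, whereas R1 and R2 shared 48. Of the 1000 highest, the numbers were 212, 211 and 615.

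**Figure D1:**
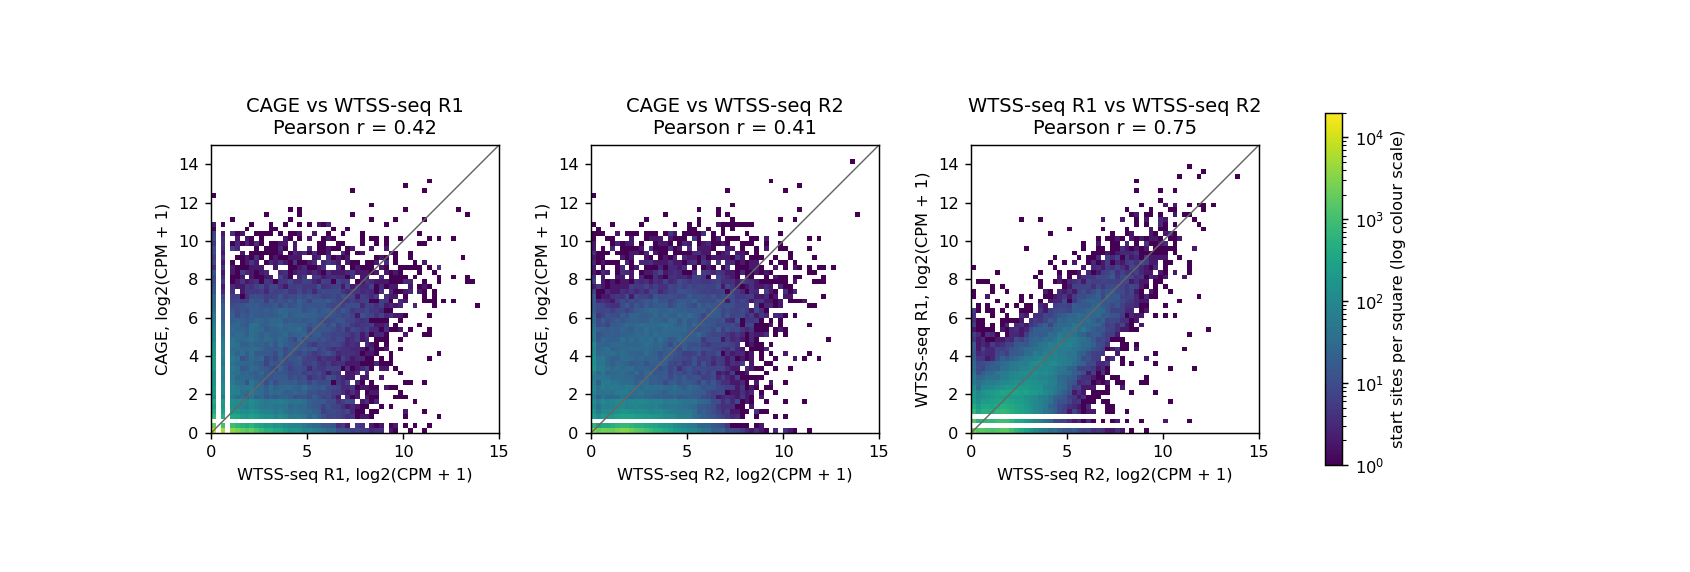
Level of each start site in one library against another, as log2(CPM + 1) on both axes, with the number of sites per square in colour on a log scale and the line of equal levels. The cloud of R1 against R2 follows the line (r = 0.752), while CAGE against R1 (r = 0.418) and against R2 (r = 0.411) fills the space on both sides of it, and empty stripes at low levels lie between whole counts.

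Pooling neighbouring sites raised the likeness of all 3 pairs. When sites of 1 strand at most 2000 bases apart were summed into 36524 runs, CAGE correlated with R1 at r = 0.475 and with R2 at r = 0.458, against 0.816 between the repeats. With gaps of up to 20000 bases (17717 runs) the values were 0.660, 0.657 and 0.878. Sites of at most 50 bases in width had negative values, r = -0.077 and -0.112 (n = 13054), where the repeats themselves reached 0.223. A narrow site can enter the list on the counts of 1 assay alone, which can lower these values, and the part of this was not tested. Wider sites gave 0.452 and 0.450, against 0.781 between the repeats (n = 52220).

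CAGE counts fell on fewer sites of the list. At their own depths, 33280 sites had a CAGE count, against 49176 in R1 and 60814 in R2. Thinned to the 1935959 counts of R1, CAGE would reach 30699 sites and R2 55221. Sites with at least 3 counts would then number 18748 in CAGE, 33504 in R1 and 43418 in R2. At this matched depth CAGE held 58.8% as many sites as the mean of the WTSS-seq libraries. The list itself leans to WTSS-seq, as 14 of its 15 libraries are of that kind, and the part this plays was not tested.

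Sites missing from CAGE were not confined to weak ones. Of the 46317 sites counted in both repeats, 20588 had no CAGE count, and these held 9.65% of R1 and 11.7% of R2 counts. Where R2 stood at 10 to 20 CPM, 72.2% of the 5282 sites had a CAGE count and 96.0% had an R1 count. Between 100 and 1000 CPM the shares were 93.9% and 98.6% of 1400 sites, and above 1000 CPM they were 90.8% and 100% of 87 sites. The class above 1000 CPM includes sites at 2607, 1178 and 1087 CPM in R2 with no CAGE count and 1 count each in R1. These count as seen in R1. With classes set by the level in R1, CAGE counted 75.2% of sites at 10 to 20 CPM. It counted 94.7% between 100 and 1000 CPM and 98.1% above 1000 CPM, so the gap at the top was smaller. In the other direction, 1601 sites had counts in CAGE and in neither repeat, with 4.02% of the CAGE counts. For 553 of them no library in the table but CAGE had a count, and these were narrow, with a median width of 3 bases against 108 bases over all sites with a count.

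**Figure D2:**
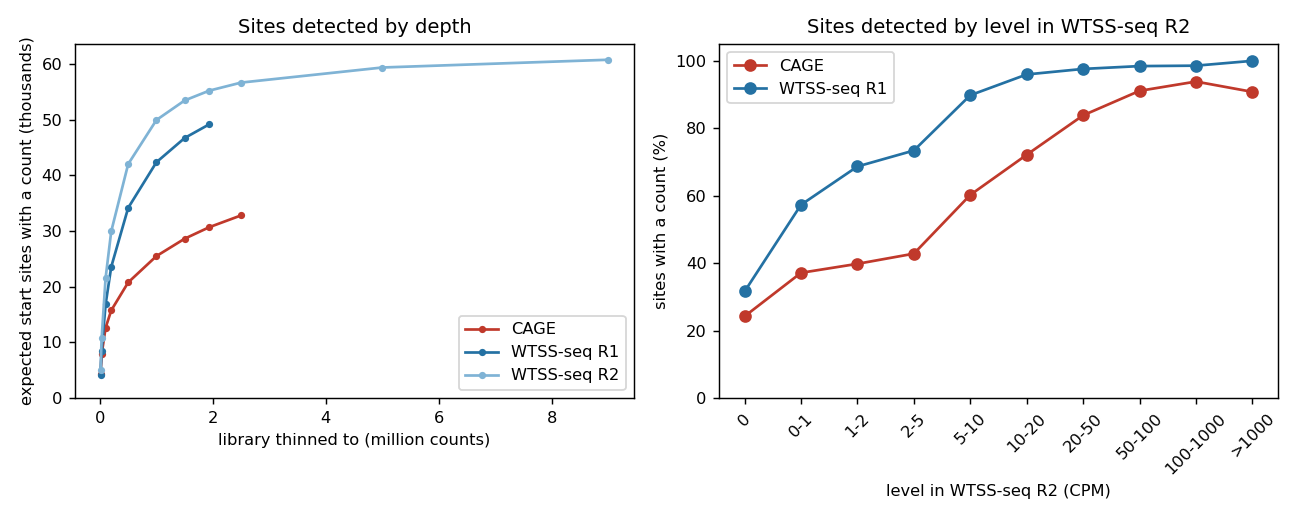
Left, expected number of start sites with a count when each library is thinned to the depth on the horizontal axis (in units of 1000000 counts). Right, share of sites with a count in CAGE and in WTSS-seq R1, by the level of the site in WTSS-seq R2 (CPM). CAGE lies under the WTSS-seq libraries at every depth drawn from 30000 counts and under R1 in every class of level.

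The share of counts in the very highest sites was lower in CAGE. Its 100 highest sites held 20.04% of its counts (95% Wilson interval 19.99 to 20.08), against 33.4% in R1 (33.3 to 33.5) and 24.2% in R2 (24.18 to 24.24). The repeats differed from each other by more than CAGE differed from R2. The 1000 highest sites held 53.9% in CAGE, between R1 (61.8%) and R2 (50.2%). Likewise, 792 sites made up 50% of the CAGE counts, against 422 in R1 and 984 in R2, so on this measure CAGE lay within the range of the repeats.

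The second question was at which sites CAGE differed from both repeats in the same direction by 4-fold or more. The gap between the repeats at a site was not part of this rule. A site was called when its CAGE level was 4-fold or more above the higher repeat, or 4-fold or more below the lower one, with fewer than 3 counts read as 3. Of 11822 sites averaging at least 10 CPM, 3796 were higher in CAGE (32.1%) and 3121 higher in WTSS-seq (26.4%), and 4905 were neither. The repeats set the background: R1 and R2 differed 4-fold at 15.9% of these sites, whereas CAGE differed from R1 at 69% and from R2 at 66.9%. Set against R1 alone, 39.7% were higher in CAGE and 29.3% in R1, and against R2 alone 35.7% were higher in CAGE and 31.2% in R2. Between the repeats, 5.46% were higher in R1 and 10.4% in R2. The filter can widen the contrast of CAGE with this background, since it keeps sites high in CAGE alone. For example, 357 sites higher in CAGE had no count in either repeat and so could not differ between the repeats. The part this plays was not tested. The sites higher in CAGE held 55.1% of CAGE counts, but 2.24% of R1 and 3.13% of R2 counts. Those higher in WTSS-seq held 2.27% of CAGE counts, against 42.8% in R1 and 37.2% in R2. The balance of directions rests on the filter and on the scaling. With no filter on level, 5671 sites were higher in CAGE and 7444 in WTSS-seq (CAGE 43.2% of the calls), and with a minimum of 50 CPM 1183 and 608 (66.1%). With TMM factors, 5160 sites were higher in CAGE and 2352 in WTSS-seq, and with RLE factors 6152 and 1925, so that CAGE took 68.7% and 76.2% of the calls in place of 54.9%. With totals taken without the 100 highest sites it took 47.8% (4063 and 4432). With R2 as the only WTSS-seq library, 4213 sites were higher in CAGE and 4272 in WTSS-seq, and with R1 as the only one 4610 and 3225. Relative to library totals these scalings shift the median log2 difference of the sites passing the filter by 1.00, 1.59 and -0.62.

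The largest folds for CAGE came from sites that WTSS-seq hardly counted. A cluster of 3 bases at 16290816 on the minus strand of chromosome 3 held 14325 CAGE counts (5424 CPM) and no count in R1, in R2 or in any other library of the table. Its level was at least 3500-fold higher in CAGE, taking the limit of 3 counts in R1. On chromosome 10 a cluster of 16 bases at 27650020 (plus strand) held 3304 CAGE counts (1251 CPM) and likewise none elsewhere, at least 807-fold higher. Both clusters lay far from any poly(A) site downstream on their strand, at 23440 and 182903 bases.

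The other sites of this kind had a few WTSS-seq counts. At 124403469 on chromosome 3 (plus strand) CAGE had 5068 counts, R1 none and R2 1, a ratio of 21422 to the pooled repeats with a 95% counting interval of 3843 to 846289. Such pooled ratios do not read fewer than 3 counts as 3, so they do not follow the ranking by fold. By the rule for calls this site was 1238-fold higher in CAGE. A site at 50971558 on chromosome 8 (plus) had 4144 CAGE counts against 0 in R1 and 2 in R2 (ratio 8758, interval 2423 to 72343). On an unplaced scaffold, B, the site at 10459 (minus) had 3343 against 1 and 2 (ratio 4710, interval 1610 to 22852). Chromosome 1 held 2 more, at 65006463 (plus, 1865 CPM in CAGE against 0.517 in R1 and 1.19 in R2) and at 87490757 (plus, 1303 CPM against 1.03 and 0.433). The last of these 8 sites, at 711540 on chromosome 9 (plus), stood at 1263 CPM in CAGE, at 0 counts in R1 and at 1.52 CPM in R2. Of the 8, this was the only one within 500 bases upstream of a poly(A) cluster or inside one. Among all sites called higher in CAGE, 357 had no count in either repeat, and for 256 of them CAGE was the only library in the table with a count.

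Of the 8 largest folds for WTSS-seq, 6 lay inside a poly(A) cluster or at most 500 bases upstream of one, against 51.7% of all sites higher in WTSS-seq and 23.8% of all sites passing the filter. At 4916591 on chromosome 6 (minus; cluster 4916430 to 4916897) there were 2 CAGE counts, against 6987 in R1 and 10195 in R2, a ratio of the pooled repeats to CAGE of 2032 (interval 563 to 16784). It lay 231 bases upstream of a poly(A) site. At 122430724 on chromosome 4 (minus) there was 1 CAGE count against 4790 in R1 and 3739 in R2, and the next poly(A) site was 352 bases downstream (ratio 2018, interval 362 to 79707). A site at 13579523 on chromosome 10 (plus) held 2 CAGE counts against 2280 in R1 and 6831 in R2, 166 bases before a poly(A) site. On the plus strand of chromosome 6 the site at 89454648 had 2.27 CPM in CAGE against 1621 in R1 and 1197 in R2, 527-fold higher in WTSS-seq. In these 4, both repeats were high and CAGE had at most 6 counts.

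For 3 of the 8 sites CAGE had no count. At 92445140 on chromosome 5 (minus) R1 and R2 stood at 501 and 505 CPM, at least 441-fold above the CAGE limit of 3 counts. A narrow cluster of 25 bases at 37524452 on chromosome 2 (plus) had 488 CPM in R1 and 1130 CPM in R2 (at least 430-fold), and a site at 6853192 on chromosome 3 (minus) had 614 and 394 CPM (at least 347-fold). The last 2 were the only ones of the 8 that were not near a poly(A) cluster. The remaining site, at 105373834 on chromosome 7 (plus), had 1.14 CPM in CAGE, against 1121 in R1 and 415 in R2. In all, 630 sites higher in WTSS-seq had no CAGE count.

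**Figure D3:**
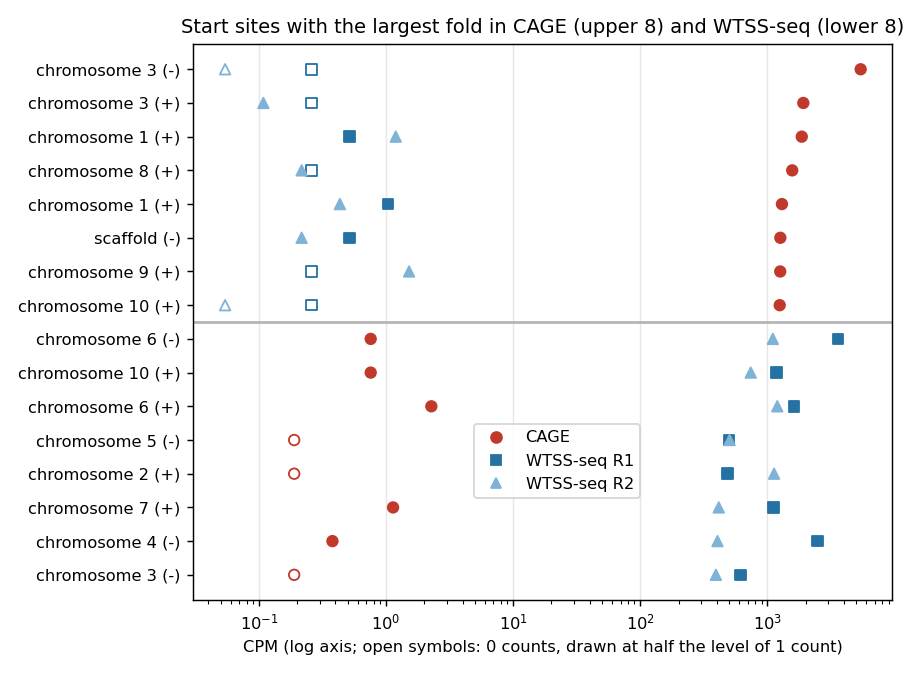
CPM on a log axis in CAGE, WTSS-seq R1 and WTSS-seq R2 of the 8 start sites with the largest fold in CAGE (upper rows) and the 8 with the largest fold in WTSS-seq (lower rows), by chromosome and strand. Open symbols stand for 0 counts, drawn at a level of 0.5 counts. In the upper rows CAGE lies above 1000 CPM and both repeats under 2 CPM, and in the lower rows both repeats lie above 390 CPM and CAGE under 3 CPM.

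Sites nearest the 4-fold limit show what it separates. On chromosome 1 the site at 33495099 (minus) was just inside, with 23.9 CPM in CAGE against 3.62 in R1 and 5.96 in R2. On chromosome 2 the one at 122940325 (minus) was just outside, with 22.7 CPM against 5.68 and 4.55. For WTSS-seq, a site at 3559 on unplaced scaffold D (plus) was just inside, with 3.79 CPM in CAGE against 33.1 and 15.2, and one at 22566452 on chromosome 3 (plus) just outside, with 5.30 against 21.2 and 35.2.

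The most abundant sites were partly shared. The highest CAGE site, at 89364 on the minus strand of unplaced scaffold A, stood at 18642 CPM in CAGE against 28652.5 in R1 and 13207 in R2, so that CAGE lay between the repeats. The other 7 of the 8 highest CAGE sites stood above both repeats, 4 of them by 4-fold or more. A pair on the minus strand of chromosome 9 differed in this: the site at 36990600 had 7137 CPM in CAGE against 1166 in R1 and 2009 in R2, while that at 36980395 had 6779 CPM in CAGE against 158 and 145. The site at 39369051 on chromosome 4 (minus) had 6003 CPM in CAGE against 2255 and 1146. On scaffold A a second site, at 72734 (minus), had 3878 CPM in CAGE against 343 and 162, and on chromosome 8 the site at 49706358 (plus) had 3289 CPM against 22.7 and 46.9. The 8 highest CAGE sites also include a mitochondrial site, described with the other mitochondrial counts, and the CAGE-only cluster on chromosome 3.

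Sites that led WTSS-seq were mostly 4-fold or more lower in CAGE. The highest of them, at 39401987 on chromosome 2 (minus), stood at 323 CPM in CAGE, against 31690 in R1 and 20452 in R2, 63.3-fold above CAGE in the nearer repeat. The site at 116530796 on chromosome 7 (plus) had 95.4 CPM in CAGE against 14056 and 2526, and that at 58847564 on chromosome 5 (minus) had 249 CPM against 12989 and 4172. Those at 93613440 on chromosome 8 (minus, 242 CPM in CAGE against 11358 and 3465) and 36207245 on chromosome 10 (minus, 298 CPM against 9886 and 1913) followed the same pattern. In these 4, R1 was over 3 times as high as R2, so the size of the fold depends on the repeat. Just past the limit was the site at 61406537 on chromosome 5 (plus), at 2488 CPM in CAGE against 10002 and 13960. A site at 182 on unplaced scaffold C (plus) had 3127 CPM in CAGE against 7107 in R1 and 20579 in R2, and was not called.

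The third question was whether the differing sites share a place relative to poly(A) sites. WTSS-seq counts lay closer to poly(A) sites. The median distance of a count to the next poly(A) site downstream on its strand was 3557 bases in CAGE, 2353 in R1 and 1857 in R2 (mitochondrial sites left out). Start sites inside a poly(A) cluster or at most 500 bases upstream of one held 22.9% of CAGE counts (95% Wilson interval 22.87 to 22.97), against 36.6% in R1 (36.5 to 36.7) and 38.3% in R2 (38.2 to 38.3). With each detected site counted once the shares were 27.3%, 30.3% and 29.1%, so most of the difference lay in levels and not in which sites were detected. Of the 2813 such sites averaging at least 10 CPM, 297 were higher in CAGE (10.6%) and 1615 in WTSS-seq (57.4%). Among the other 9009 sites it was 3499 (38.8%) and 1506 (16.7%). They made up 7.82% of all sites higher in CAGE and 51.7% of those higher in WTSS-seq, against 23.8% of all sites passing the filter. The 98277 poly(A) clusters come from WTTS-seq, which reads the 3′ ends of transcripts, and only their positions were used.

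This contrast changed with distance over most of its range. Within 200 bases of a poly(A) site 7.41% of 1511 sites were higher in CAGE and 56.7% in WTSS-seq, from 1001 to 2000 bases 28.0% and 34.2% of 897, and from 5001 to 10000 bases 41.4% and 11.4% of 2123. In counts, the stretch from 2001 to 5000 bases held 24.9% of CAGE against 18.6% of R1 and 15.8% of R2. The median distance was 7046 bases for sites higher in CAGE and 565 bases for sites higher in WTSS-seq, against 4255 for all sites passing the filter. Near poly(A) clusters more sites were called higher in WTSS-seq than in CAGE under each scaling run: 15.3% were higher in CAGE and 47.7% in WTSS-seq with TMM factors, 18.8% and 40.1% with RLE factors, and 8.34% and 62.1% with totals taken without the 100 highest sites. Against R2 alone 10.9% of such sites were higher in CAGE and 67.4% in WTSS-seq, and against R1 alone 16.3% and 60.9%.

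**Figure D4:**
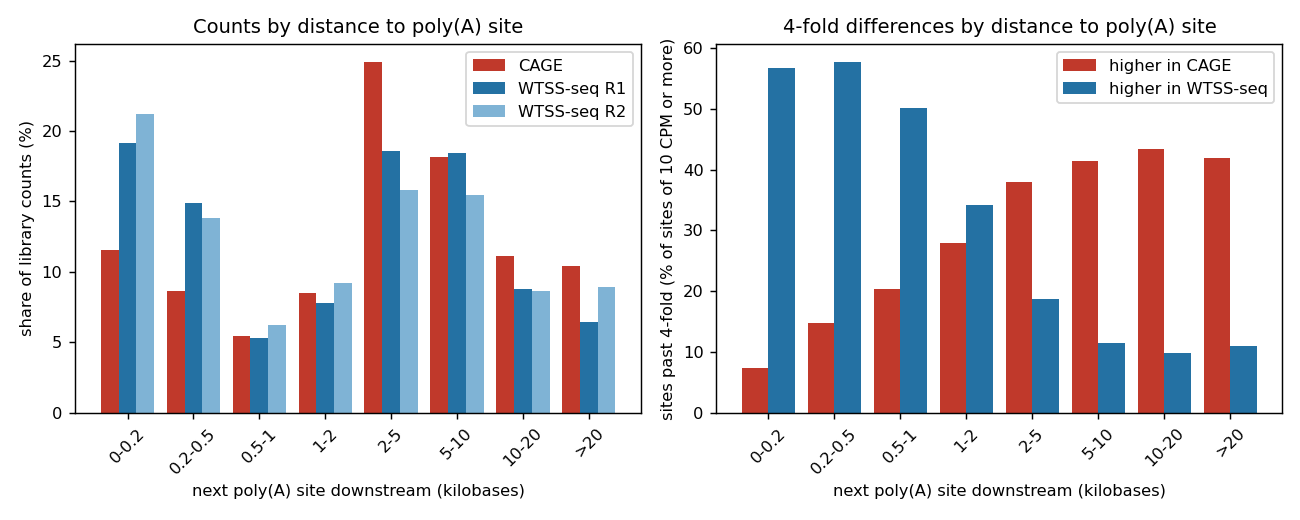
Left, share of each library's counts (%) by the distance of the start site to the next poly(A) site downstream on the same strand, in kilobases, for CAGE, WTSS-seq R1 and WTSS-seq R2. Right, share of the sites averaging at least 10 CPM in each class that were 4-fold higher in CAGE or in WTSS-seq. Within 200 bases 7.41% were higher in CAGE and 56.7% in WTSS-seq, and from 5001 to 10000 bases 41.4% and 11.4%.

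Within a run, CAGE favoured the upstream site. In 3416 runs (gaps of at most 2000 bases) the 2 highest sites with a mean of 20 counts or more were compared, with 0.5 added to each count and a median of 1040 bases between them. This mean was of raw counts over the 3 libraries, so the deepest library, R2, weighed most in which sites reached the limit. Among these, the 2 highest were picked by the mean of CAGE CPM and mean WTSS-seq CPM. Where a library had few counts for a pair, the added 0.5 drew its share toward 50%. The upstream site took 64.1% of the counts of the pair on average in CAGE, against 49.3% in R1 and 52.04% in R2. CAGE lay above both repeats in 1957 runs (57.3%), below both in 880 (25.8%) and between them in 579. It exceeded the higher repeat by over 50 points in 337 runs and fell short of the lower one by as much in 69. Between the repeats, R1 was over 50 points above R2 in 53 runs and as far below it in 67. The main site lay upstream in CAGE and downstream in both repeats in 595 runs, and the other way round in 217. It was the same in all 3 libraries in 1335 runs. The repeats themselves differed in their main site, or had a tie, in 981 runs. In the remaining runs CAGE had equal counts, or none, at both sites, and both repeats lay on the same side of 50%. Such runs have no main site in CAGE, yet they are among those counted above as above both or below both repeats.

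The CAGE share was larger the farther apart the sites lay, while the WTSS-seq shares stayed near 50%. Where the pair lay at most 100 bases apart (74 runs), the upstream site took 43.5% in CAGE, 49.5% in R1 and 46.0% in R2. From 201 to 500 bases it took 57.8%, 49.4% and 51.2% (591 runs), and beyond 2000 bases 70.4%, 48.2% and 50.5% (608 runs). The repeats stayed between 46.0% and 53.3% in every class.

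**Figure D5:**
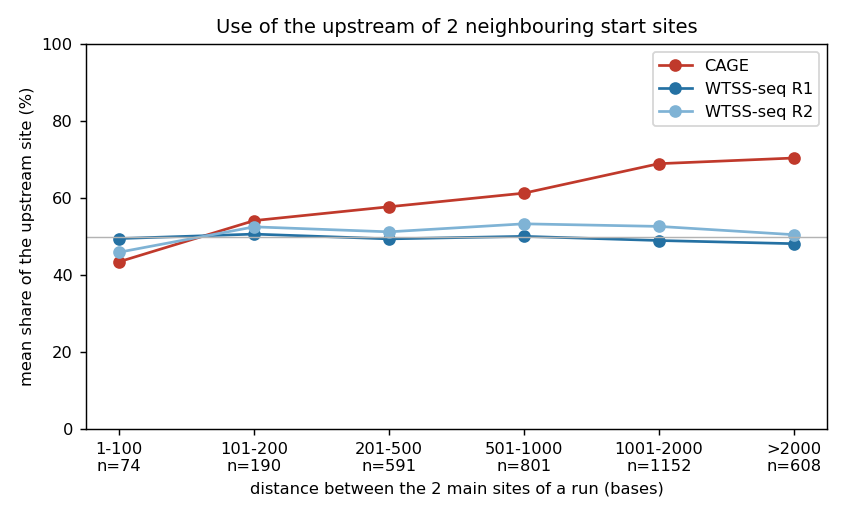
Mean share (%) of the upstream site among the 2 highest start sites of a run, by the distance between them in bases, for CAGE, WTSS-seq R1 and WTSS-seq R2, with the number of runs under each class and a line at 50%. CAGE climbs to 70.4% beyond 2000 bases while both repeats stay near 50%.

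Of 251 runs with 200 or more counts in each library, those with the largest upstream shift were close to a full exchange of sites. On chromosome 9 (plus strand) the upstream site at 22483069 had 3654 CAGE counts and the downstream one at 22486456 had 33, against 22 and 5380 in R1 and 508 and 15823 in R2. Its upstream share was 99.1% in CAGE, 0.416% in R1 and 3.11% in R2. On the plus strand of chromosome 7, the site at 105370834 lies 3000 bases upstream of the one at 105373834 described above for WTSS-seq, and it held 99.9% of the pair's counts in CAGE against 2.84% in R1 and 9.26% in R2. Runs on chromosome 8 (minus, 67294027 and 67291906; plus, 10511670 and 10513306) and on chromosome 4 (plus, 13627381 and 13631377) had upstream shares of 97.1% to 99.4% in CAGE, 2.07% to 3.01% in R1 and 4.82% to 9.96% in R2.

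Shifts in the other direction were smaller and less even between the repeats. A run on an unplaced scaffold (plus, 59940 and 63164) had 11.6% upstream in CAGE against 99.8% in R1 and 88.2% in R2. On chromosome 2 (minus, 52872242 and 52871069) the shares were 40.1%, 95.5% and 74.6%. At 51871752 on chromosome 8 (plus) CAGE had 0.193% against 80.9% in R1, but R2 stood at 3.04%. The other 2 of the 5, on scaffold A and on chromosome 9, had 0.568% and 67.2% in CAGE, 42.2% and 99.9% in R1, and 34.9% and 99.4% in R2.

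Most called sites had no site called in the opposite direction within 20000 bases on their strand. Those that had one were mostly ordered along the strand. For 663 of the 3796 sites higher in CAGE, a site higher in WTSS-seq lay within 20000 bases on the same strand, and the nearest was downstream in 520 (78.4%) and upstream in 143. Seen from the 3121 sites higher in WTSS-seq, 875 had such a neighbour, upstream in 711 (81.3%). Both counts hold in part the same pairs, read from either end. Sites 4-fold higher in R1 than in R2, set against those higher in R2, gave 15 downstream and 12 upstream, with too few pairs for more than a rough background.

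Clusters of at most 50 bases held larger shares of counts in CAGE than in either repeat, but not more of the sites detected. Cluster bounds were set by the authors over their libraries, so width belongs to the site and not to the library. Clusters of 1 base held 0.735% of CAGE counts, against 0.0363% in R1 and 0.0405% in R2. Counted once each, clusters of 2 to 10 bases made up 2.17% of the sites with a count in CAGE, against 2.32% in R1 and 3.09% in R2, and those of 11 to 50 bases 10.3%, against 11.8% and 14.5%, while those of 1 base made up 0.736%, against 0.236% and 0.342%. A narrow cluster can pass the minimum of 10 CPM through its CAGE level alone or its WTSS-seq level alone. Either can by itself favour that assay in the counts of calls that follow. From 2 to 10 bases 157 of 228 were higher in CAGE (68.9%) and 20 in WTSS-seq, and from 11 to 50 bases 277 of 452 (61.3%) and 69. The 20 sites higher in WTSS-seq were all those of at most 10 bases, a number that became 71 without R1 and 55 without R2. Beyond 200 bases the order turned, with 1424 of 7190 higher in CAGE (19.8%) and 2347 in WTSS-seq (32.6%), although the order was the other way for these wide clusters with TMM factors (2012 and 1788 sites) and RLE factors (2413 and 1473). The width at which 50% of counts were reached was 246 bases in CAGE, 352 in R1 and 310 in R2, a difference of -85 bases from the mean of the repeats that became 22 with each detected site counted once. A site counted in 1 library of the table alone can be narrow for that reason, and the part of this was not tested.

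In sum, the shares of counts per chromosome differed more between the assays than between the repeats. Moving CAGE counts to the mean chromosome shares of WTSS-seq would shift 10.1% of them, against 3.65% between R1 and R2, and with each detected site counted once the assays differed by 0.870 points. Chromosome 9 held 9.74% of CAGE counts, against 6.01% in R1 and 5.94% in R2. There, 22 sites from 36900001 to 37100000, a stretch picked after its values were seen, held 1.48% of CAGE counts against 0.176% and 0.250%. Chromosome 6 was also higher in CAGE (7.77% against 5.55% and 5.95%), as was chromosome 3 (11.0% against 8.71% and 9.71%). Chromosome 5 was lower in CAGE (6.83% against 9.19% and 9.57%), and so was chromosome 2 (11.1% against 14.4% and 13.3%), where the leading WTSS-seq site alone took 3.17% of R1 and 2.05% of R2 counts. Chromosome 8 stood at 7.33% in CAGE, 8.73% in R1 and 10.1% in R2, chromosome 7 at 6.60%, 8.58% and 7.15%, and chromosome 10 at 3.72%, 5.41% and 4.42%. For chromosomes 1 and 4 and the unplaced scaffolds, CAGE stood at 12.2%, 9.75% and 12.7%, R1 at 12.5%, 8.88% and 11.4%, and R2 at 12.4%, 9.09% and 11.7%.

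Mitochondrial RNA was counted by both assays. Its 45 sites held 1.28% of CAGE counts (95% Wilson interval 1.26 to 1.29), against 0.601% in R1 and 0.689% in R2. The highest of them in CAGE, at 1598 on the plus strand (cluster 1021 to 2583), had 8253 CPM in CAGE, against 2474 in R1 and 661 in R2. It was the second highest site of the CAGE library and was set apart here for its CAGE level. All other mitochondrial sites together held 0.452% of CAGE counts against 0.353% in R1 and 0.623% in R2, so that without it CAGE lay between the repeats. The site at 298 (plus) also stood above both repeats, with 3188 CPM in CAGE against 1049 and 1901. That at 7113 (plus) stood below both, with 313 CPM in CAGE against 380 in R1 and 2435 in R2. Minus-strand sites took 0.955% of mitochondrial counts in CAGE, against 7.04% in R1 and 7.44% in R2. Of 13 mitochondrial sites averaging at least 10 CPM, 0 were higher in CAGE and 3 in WTSS-seq. With TMM factors it was 1 and 2 of 13. With RLE factors it was 3 and 2 of 14, in the other direction.

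Sites on the weak strand of a place transcribed both ways were picked for their low mean level, which by itself keeps their share of counts small. Sites with an opposite-strand start at least 10-fold stronger within 1000 bases held 0.435% of CAGE counts, against 0.309% in R1 and 0.421% in R2. The difference of 0.070 points from the mean of the repeats was within their spread (standard deviation 0.079 points). With a 3-fold limit in place of 10-fold the difference was 0.267 points. The spread of the repeats at that limit was not computed. Of the 72 such sites averaging at least 10 CPM, 35 were higher in CAGE (48.6%) and 8 in WTSS-seq (11.1%), against 32.1% and 26.4% of all sites passing the filter. Strands as a whole were even, with 48.3% of counts on the plus strand in CAGE, 49.7% in R1 and 51.3% in R2.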

How the data were processed

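The authors deposited whole-number counts per start site cluster and library, per the file headers and the values; aligner, genome build, clustering and filters were not given in the sources used here. Positions and other columns of the deposited tables were read as given and shifted to count from 1; chromosome numbers follow the sequence names, and letters stand for unplaced scaffolds. The 24 columns of single animals were not used, nor were poly(A) counts. The sites and comparisons were chosen with earlier results of these data known, and the classes of distance, neighbouring sites and correlations over runs after seeing the values. CPM used library totals (1935959 to 9227896); log2 values had 1 CPM added. Sites were named by rule: with a mean of 100 CPM or more, the 8 largest folds each way past 4-fold; the 8 highest per assay; and 5 runs each way with 200 counts in each library. Thinning used the exact hypergeometric expectation. Intervals are 95% Wilson (shares) or exact binomial (ratios), for counting error only. Code was tested on simulated data. No p-value was computed. Scaling alternatives used edgeR 4.0.16 (R 4.3.3); the rest used Python 3.11.15 with scipy 1.17.1, pandas 2.3.3, numpy 2.4.6 and matplotlib. Further alternatives were fold, filter, pseudocount, distances and each repeat left out.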

Additional observations from a re-analysis of the deposited data

How the results depend on the processing

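No paired analysis was possible because CAGE has 1 library and the 2 WTSS-seq repeats come from the same pool. The number of sites higher in CAGE was 1183 with a minimum of 50 CPM and 6152 with RLE factors, and of sites higher in WTSS-seq 608, 1925 and, with no filter, 7444. The correlation of CAGE with mean WTSS-seq (0.431) was 0.355 and 0.471 with 0.1 and 10 CPM added, and 0.411 to 0.418 with either repeat left out. Over runs of gaps to 2000 and 20000 bases, chosen after seeing the data, it was 0.477 and 0.664. Among sites averaging at least 10 CPM it was -0.153. This filter keeps sites high in either assay, which can by itself lower the value. CAGE detected 48.7% as many sites at 3 or more counts. Its difference in the 1000 highest sites was -2.05 points. The difference between chromosome shares was 8.05 points without each highest site and 0.870 with sites counted once, when chromosomes 1, 2 and 10 and the scaffolds changed sign (0.241, 0.032, 0.082 and -0.287 points); chromosome 4 did so without its highest site (-0.017). The upstream share in CAGE exceeded WTSS-seq by 13.4 points, by 4.68 and 20.1 with gaps of 500 and 5000 bases and by 25.3 with 100 counts or more. The median width difference of -85 bases became 22 with sites counted once. The weak-strand difference was 0.267 points at 3-fold. The difference near poly(A) clusters (-14.5 points) was -12.01 at 200 bases, -17.1 without the 100 highest sites of each library and -2.39 with sites counted once. The causes were not tested. Depth limits R1 most: 1 count there is 0.517 CPM.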

Other observations

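Some sites set the WTSS-seq repeats apart although both came from 1 pool. The 3 largest gaps on the log2(CPM + 1) scale among sites averaging at least 10 CPM were all counted in R2 and nearly absent from R1. At 36688440 on the minus strand of chromosome 4 CAGE had 0 counts, R1 had 1 and R2 had 24053. At 131355011 on chromosome 4 (plus) the counts were 0, 1 and 10874, and at 80085953 on chromosome 3 (minus) they were 0, 1 and 10028. Since a call needed both repeats, none of the 3 was counted as higher in WTSS-seq.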
